A study of Homo sapiens with 6 samples.

Results

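The genes described here lie on chromosome 2 and start before 130 Mb, which takes in the short arm, the centromere and the first part of the long arm. The stretch holds 845 gene symbols of the deposited table. Of these, 17 are listed at further loci and were left out, and 828 have a single locus. A mean of at least 0.7 RPM (reads scaled to a common sequencing depth, the unit of the table before its log) over all 6 samples was reached by 582, which are the genes described, of 22258 symbols in the table. The other 246 lie below that level. The remaining part of chromosome 2 has 449 genes by the same rule and is the comparison.

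RNA was sequenced from SW480 cells, a human colon cancer line that carries a truncated APC. The 3 knockdown samples (KD, replicates 4, 5 and 6) have the genotype ALDH1B1 KD and the 3 control samples (SCR, replicates 4, 5 and 6) are called WT, and no sample was given a treatment. ALDH1B1 is a mitochondrial aldehyde dehydrogenase, and how it was knocked down, or whether a group is 1 clone or several cultures, is not stated in the labels. Nothing says that replicates were separate cultures, so p-values reflect the spread among these 6 libraries only, and that spread may be technical.

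Genes along a chromosome share the DNA they are read from but usually not their control, so neighbours differ widely in level and in response. A set of neighbours that is displaced together is usually seen only in a profile ordered by position. The stretch carries genes of many kinds, among them ALK, MSH6, EPCAM, RRM2, MYCN and the RANBP2-like copies. It was chosen because earlier results of these data showed its genes higher in the knockdown. Its differences between the groups are therefore a description, and no test of the stretch is given.

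The 6 promoter windows below are shown because their genes carry the outer values and the far edge of the shift. ALK and ANTXR1 had the largest rises where the mean reached 3.5 RPM, INHBB was the one of the 10 highest that lies nearest the edge, and CLASP1 and NIFK stand on the 2 sides of the edge. The windows are RefSeq's, in GRCh38.p14, from 250 bases before to 50 after a gene start, 5′ to 3′ on the gene's strand, and capitals mark GGGCGG or its reverse complement CCGCCC, the GC box.
ALK, upstream start (chr2:29921537-29921836, minus strand): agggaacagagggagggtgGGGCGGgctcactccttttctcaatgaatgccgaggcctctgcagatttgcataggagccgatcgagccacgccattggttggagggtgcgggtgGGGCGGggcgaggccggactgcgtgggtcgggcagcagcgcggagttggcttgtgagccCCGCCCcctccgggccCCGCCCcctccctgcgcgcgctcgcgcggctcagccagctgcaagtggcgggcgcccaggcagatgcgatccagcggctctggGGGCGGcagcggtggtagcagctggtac
ALK, downstream start (chr2:29223774-29224073, minus strand): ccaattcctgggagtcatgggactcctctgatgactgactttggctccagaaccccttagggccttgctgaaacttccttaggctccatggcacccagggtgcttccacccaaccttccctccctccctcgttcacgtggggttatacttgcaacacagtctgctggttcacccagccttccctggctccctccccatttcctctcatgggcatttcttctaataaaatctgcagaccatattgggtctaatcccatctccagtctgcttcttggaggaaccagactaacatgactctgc
ANTXR1 (chr2:69012894-69013193, plus strand): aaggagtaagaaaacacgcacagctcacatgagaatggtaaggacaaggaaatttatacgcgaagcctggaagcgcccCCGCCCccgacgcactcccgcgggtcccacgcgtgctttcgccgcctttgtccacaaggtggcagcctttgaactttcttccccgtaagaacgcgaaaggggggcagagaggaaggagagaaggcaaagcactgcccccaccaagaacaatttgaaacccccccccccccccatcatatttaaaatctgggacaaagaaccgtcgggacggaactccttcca
INHBB (chr2:120345886-120346185, plus strand): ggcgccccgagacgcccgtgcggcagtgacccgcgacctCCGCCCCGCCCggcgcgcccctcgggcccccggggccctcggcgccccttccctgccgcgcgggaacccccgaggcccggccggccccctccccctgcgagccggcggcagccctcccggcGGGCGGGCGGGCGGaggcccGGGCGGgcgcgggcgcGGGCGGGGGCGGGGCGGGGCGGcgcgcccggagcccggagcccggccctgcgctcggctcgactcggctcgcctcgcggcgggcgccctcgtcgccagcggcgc
CLASP1 (chr2:121649413-121649712, minus strand): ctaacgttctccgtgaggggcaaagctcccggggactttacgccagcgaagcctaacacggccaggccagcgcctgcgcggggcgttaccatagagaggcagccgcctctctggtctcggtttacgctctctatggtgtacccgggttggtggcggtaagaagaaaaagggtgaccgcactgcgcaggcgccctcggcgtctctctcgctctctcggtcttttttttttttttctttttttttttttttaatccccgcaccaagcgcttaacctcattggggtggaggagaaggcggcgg
NIFK (chr2:121736826-121737125, minus strand): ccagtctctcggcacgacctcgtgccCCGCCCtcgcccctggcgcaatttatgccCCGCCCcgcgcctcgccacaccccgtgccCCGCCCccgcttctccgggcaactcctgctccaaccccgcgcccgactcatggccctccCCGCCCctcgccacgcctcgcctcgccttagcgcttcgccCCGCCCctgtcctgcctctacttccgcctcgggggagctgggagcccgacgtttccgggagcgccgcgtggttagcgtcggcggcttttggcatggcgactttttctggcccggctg
The windows differ in base composition, from 53.0% G and C at the downstream ALK start to 88.7% at INHBB. The upstream ALK window held 5 GC boxes, the INHBB window 10, counting overlaps, the NIFK window 5 and the ANTXR1 window 1, and the downstream ALK and CLASP1 windows held none. RefSeq windows were found for 408 of the 582 genes (615 windows), and 65.0% of them held a GC box, against 66.0% of 485 windows of the rest of chromosome 2 and 44.95% of 35116 windows of all genes. TATAAA, in either orientation, was in 4.88% of the stretch's windows, 7.22% of the rest's and 11.5% of all. The GC box share of the stretch was thus near that of the rest of the chromosome, and the windows of all genes had a lower one. That last set is not a like comparison, because it includes genes below 0.7 RPM and the other sets do not. Coordinates of the table itself are of another build, which it does not name, and are given below as it has them.

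The knockdown was partial. ALDH1B1 (chromosome 9, 38392661 to 38398659 in the table) had 34.1, 39.6 and 36.7 RPM in control replicates 4, 5 and 6, and 19.99, 20.4 and 23.2 RPM in the knockdown samples. The groups did not overlap, and the knockdown mean was 57.6% of control (log2 fold change -0.80, SE 0.0925, limma adjusted p = 2.38e-07, exact two-sided permutation p = 0.1, the smallest that 3 against 3 samples give). Sequencing depth ranged from 20350000 to 28580000 reads. The colon epithelial markers, mostly the keratins KRT8, KRT18 and KRT19, summed to 5433 to 5689 RPM in the control samples and 5830 to 6142 in the knockdown samples, and the members did not move alike. CDX2 was at 52.3 to 57.3 RPM in the control and 28.5 to 35.2 in the knockdown, whereas CDH1 was at 9.86 to 15.6 and then 45.4 to 54.96 RPM and VIL1, on the rest of chromosome 2, at 5.44 to 6.50 and then 20.5 to 22.98 RPM. KRT20 was at most 0.196 RPM. LGR5 was at 0.170 to 0.245 RPM in the control and at 0 in all knockdown samples. Both genes lie below the level of 0.7 RPM, so no change is read from them. Markers of leukocytes summed to 2.31 to 3.53 RPM in the control and 1.96 to 2.66 in the knockdown, those of fibroblasts to 4.08 to 5.70 and 5.27 to 6.92, and of endothelium to 0.425 to 0.617 and 0.497 to 0.688. Rows were at hand for 5 of 7, 2 of 7 and 1 of 5 of these markers, and the others were not analysed here. Control replicate 6 stood apart, with a median gene 0.14 log2 units below the other control samples, and this held on and off the stretch.

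Genes of the stretch were higher in the knockdown almost throughout. Of the 582, 415 rose (71.3%) and 14 fell (2.41%) in a limma fit over all 15451 genes tested, at an adjusted p under 0.05, and 153 did not pass. Over all genes tested, 22.7% rose, 19.3% fell and 41.9% did either. The median log2 fold change was 0.46 in the stretch (middle range 0.26 to 0.75, from the first to the third quartile), against 0.00 over all genes and -0.09 in the rest of chromosome 2 (-0.28 to 0.18), where 63 of 449 rose and 119 fell. Values in the knockdown exceeded every control value for 449 of the 582 (77.1%, against 26.5% of all genes tested) and lay below every one for 21 (3.61%, against 24.6%). As the stretch was chosen on this contrast, the gap to these background shares carries no weight. On the linear scale the median gene of the stretch stood at 138% of control, and that of the rest at 93.9%.

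**Figure D1:**
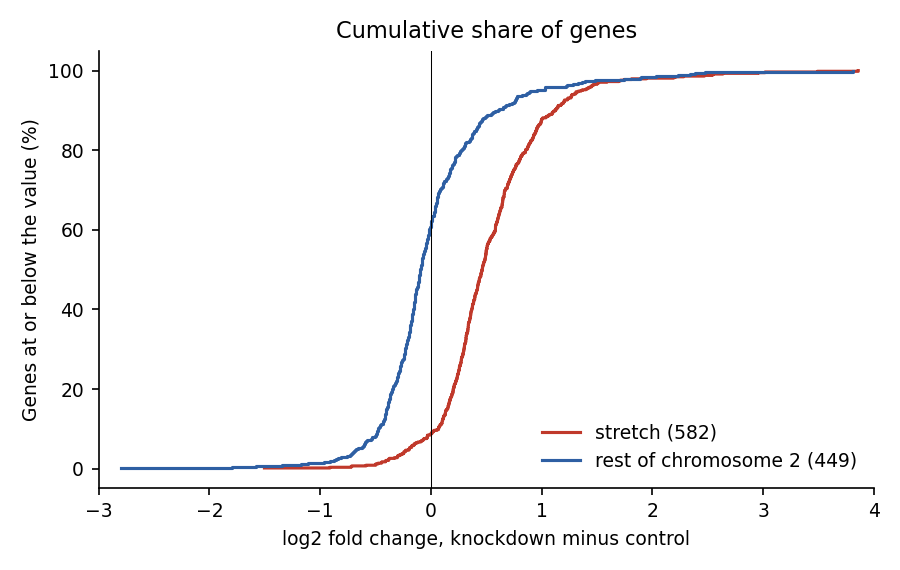
Cumulative share of genes (%) by log2 fold change, knockdown minus control, for the 582 genes of the stretch and the 449 of the rest of chromosome 2. The stretch's curve lies to the right over most of its course, with a median of 0.46 against -0.09, and 91.2% of its genes lie above 0 against 38.8% of the rest.

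Each knockdown sample showed the shift by itself. Set against the mean of the control samples, the median gene of the stretch stood at 0.46, 0.45 and 0.49 log2 units in knockdown replicates 4, 5 and 6, and the median gene of the rest of chromosome 2 at -0.07, -0.11 and -0.05. Control replicates 4, 5 and 6, each set against the other control samples, had 0.06, 0.08 and -0.14 in the stretch and 0.06, 0.09 and -0.15 in the rest. The difference between stretch and rest was therefore 0.53, 0.56 and 0.54 in the knockdown samples and 0.00, -0.01 and 0.01 in the control samples. The deviation of control replicate 6 cancels in that difference. Within groups the stretch moved with the rest of the chromosome: each knockdown sample's median deviation from its own group's mean was -0.01, -0.02 and 0.04 in the stretch and 0.00, -0.03 and 0.03 in the rest.

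The same can be read from the sum of reads. The 582 genes summed to 19501, 19682 and 18037 RPM in the control samples and to 24590, 23956 and 24981 RPM in the knockdown samples (19073 ± 902 and 24509 ± 517, SD, n = 3 each). The 449 genes of the rest went from 19765 ± 1000.5 RPM (control) to 17671 ± 507 RPM (knockdown; SD, n = 3 each). Of the summed RPM of these 582 and 449 genes, the stretch held 49.2%, 48.9% and 49.2% in the control samples and 57.97%, 58.3% and 58.0% in the knockdown samples. Every knockdown share lay above every control share.

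**Figure D2:**
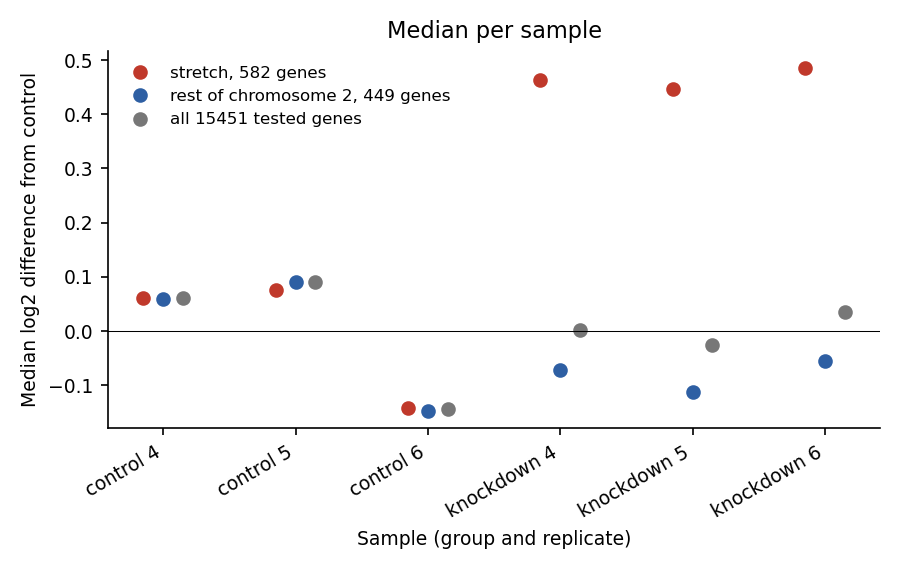
Median log2 difference from control (vertical axis) in each of the 6 samples, for the stretch, the rest of chromosome 2 and all 15451 genes tested; each control sample is set against the other control samples. The 3 sets fall together in every control sample, and in the knockdown samples the stretch stands at 0.45 to 0.49 while the rest stands at -0.11 to -0.05.

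The profile along the chromosome was even, and then ended. Each of the first 12 bins of 10 Mb had a median between 0.36 (30 to 40 Mb) and 0.63 (110 to 120 Mb), and between 60.6% and 80.9% of its genes rose. No gene fell in the bins that begin at 0, 20, 70, 80, 90 and 110 Mb. The last bin of the stretch, from 120 to 130 Mb, was mixed, with a median of 0.21 and 10 genes that rose and 5 that fell among 30. The 12 bins beyond had medians from -0.28 to -0.03, the lowest in a bin of 6 genes from 140 to 150 Mb.

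Gene by gene, the last gene of the stretch that rose was NIFK-AS1, within the last bin, and NIFK comes next. From FAM110C, the first gene, to NIFK-AS1 (start 122407226), the 565 genes had a median log2 fold change of 0.48, and 415 rose while 9 fell. From NIFK (start 122484521) to HS6ST1 (start 128994290), 0 of 17 rose and 5 fell, with a median of -0.09, close to the -0.10 of the 44 genes from 130 to 140 Mb. Under quantile normalization and scaling to the total of nuclear genes, 2 (ERCC3 and TSN) and 3 (BIN1, ERCC3 and TSN) of the 17 rose. The limit between NIFK-AS1 and NIFK, called the edge here, was placed after the values were seen, behind the last gene that rose. That 0 of the 17 rose in the main fit is therefore fixed by the cut. The cut rests on NIFK-AS1, whose call was lost under 6 of the 15 alternatives run for it. With the edge so placed, the limit of 130 Mb takes in 17 genes beyond it.

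Near that edge INHBB, GLI2 and CLASP1 were higher in the knockdown, GLI2 and CLASP1 being chosen after their values were seen. INHBB, a subunit of inhibin and activin (121103719 to 121109385), had 22.5, 22.3 and 18.1 RPM in control replicates 4, 5 and 6 and 58.3, 52.5 and 57.2 RPM in the knockdown samples, a log2 fold change of 1.42 (SE 0.0932). GLI2, a transcription factor of Hedgehog signalling (121493199 to 121750230), had 8.01, 10.8 and 6.50 RPM in the control and 19.5, 19.9 and 24.3 in the knockdown, a log2 fold change of 1.36. CLASP1, a microtubule-binding protein (122095352 to 122407164), had 49.4, 52.8 and 47.5 RPM in the control and 57.9, 64.5 and 68.6 in the knockdown, a log2 fold change of 0.35. In each of these genes the groups did not overlap. Not every gene there rose, and TFCP2L1, another transcription factor, had a log2 fold change of 0.24 and did not pass.

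NIFK-AS1, which begins after CLASP1 and overlaps the start of NIFK in the table, rose by 0.60 with overlapping groups at 1.61 to 3.70 RPM, a call that was lost under 6 of the 15 alternatives run for it, and reads of an antisense gene may be shared with its neighbours because strand use in counting is not stated. NIFK, a nucleolar protein that binds Ki-67, had 31.1, 36.8 and 33.5 RPM in the control and 41.7, 32.2 and 34.8 in the knockdown, with overlapping groups and a log2 fold change of 0.10. TSN, the nucleic acid-binding translin, had 78.8, 77.8 and 78.6 RPM in the control and 87.6, 81.4 and 88.6 in the knockdown, a log2 fold change of 0.13 that did not pass, although the groups did not overlap. It passed under quantile normalization and under scaling to the total of nuclear genes.

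The 4 genes just inside 130 Mb were RP11-395A13.2, SAP130, UGGT1 and HS6ST1, with log2 fold changes of -0.25, -0.30, -0.24 and -0.41. The 4 just outside were RAB6C, CCDC74B, SMPD4 and MZT2B, with 0.26, 0.89, -0.22 and 0.07. The call of SMPD4 was lost under 7 of the 16 alternatives run for it, among them the fit without control replicate 5 (-0.14). Just above the level of 0.7 RPM were FBLN7, MTND4P26 and CYP26B1, with means of 0.717, 0.726 and 0.727 RPM, and just below it PLGLB1, GPR17 and ASPRV1, with 0.699, 0.696 and 0.673 RPM. FBLN7 and CYP26B1 were at 0.213 and 0.293 RPM in the control and 1.22 and 1.16 RPM in the knockdown, so they passed the level through the knockdown samples.

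**Figure D3:**
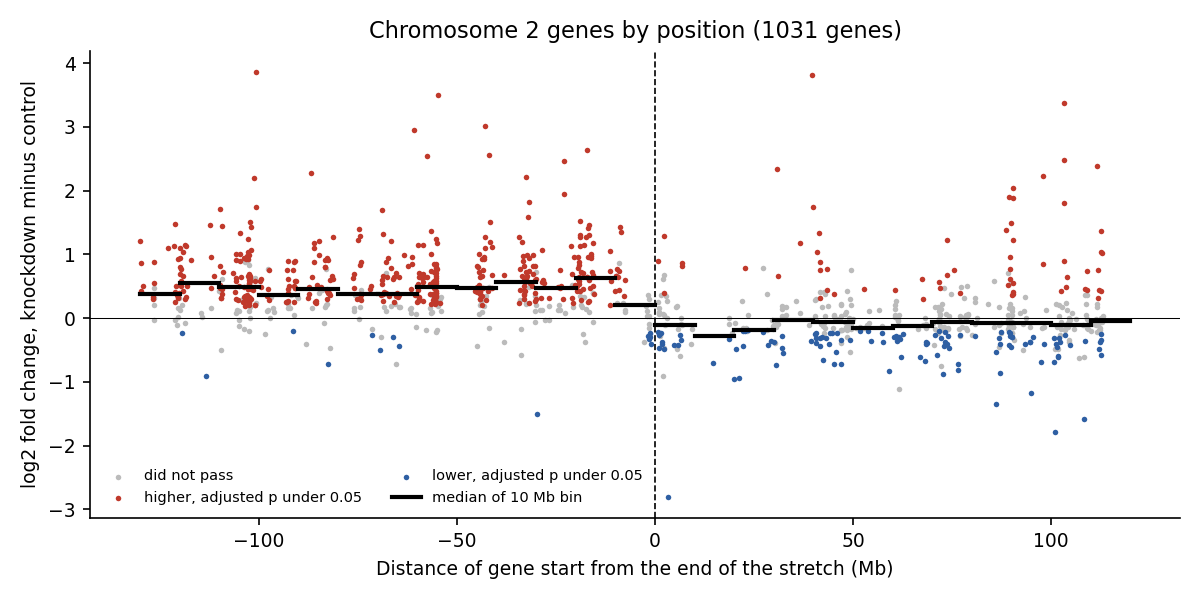
log2 fold change, knockdown minus control (vertical axis), of the 1031 tested genes of chromosome 2 by the distance of their start from the end of the stretch in Mb (dashed line at 0). Points are genes, coloured by the limma call, and black bars are medians of 10 Mb bins, which run from 0.36 to 0.63 in the first 12 bins and from -0.28 to -0.03 beyond the line.

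The median log2 fold change of the stretch was positive at every level and gene length. It was larger among genes with few reads, and this held in the rest of chromosome 2 too. By mean RPM, the median log2 fold change was 0.72 in 132 genes from 0.7 to 3.5 RPM, 0.71 in 81 from 3.5 to 10, 0.50 in 168 from 10 to 30, 0.36 in 157 from 30 to 100 and 0.30 in 44 of 100 and over. The rest of chromosome 2 had the same order, with medians of 0.11, 0.00, -0.07, -0.14 and -0.21. The lowest band of the stretch also holds genes, such as FBLN7 and CYP26B1, that reached 0.7 RPM only through the knockdown samples. By the span of the gene in the table, medians ran from 0.42 (100 kb and over, 125 genes) to 0.57 (10 to 30 kb, 129 genes). Genes on the plus strand had a median of 0.49 (297 genes) and those on the minus strand 0.45 (285 genes). Of the genes whose symbol was found in GENCODE, 453 protein-coding genes had a median of 0.46, 26 non-coding RNA genes 0.67 and 29 pseudogenes 0.08. The pseudogenes thus stood apart from the other kinds, with 2 of 29 that fell and 19 that did not pass. Many are processed copies of genes elsewhere and can take reads of those genes.

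In the stretch, 72 genes rose by at least 1 log2 unit and 1 fell by as much, against shares of 4.65% and 1.2% among all genes tested. Where the mean reached 3.5 RPM, the 10 highest were ALK, ANTXR1, RGPD2, RGPD3, PLB1, CD8BP, ZAP70, KRCC1, VSNL1 and INHBB, and the groups did not overlap in any of them. The level of 3.5 RPM is a mean over all 6 samples. ALK, ANTXR1, RGPD2, RGPD3 and PLB1 lay below it in every control sample, so they reached it through the knockdown samples. In the control samples ALK lay below 0.7 RPM too. The rank of these genes is therefore a description only. The 10 lie at many points of the stretch, from VSNL1 (start 17720393) to INHBB (start 121103719).

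ALK, a receptor tyrosine kinase that is little expressed in the gut and an oncogene when fused or mutated (29415640 to 30144433), had 0.595, 0.664 and 0.595 RPM in control replicates 4, 5 and 6. It had 8.55, 8.84 and 9.52 RPM in the knockdown samples, so that its lowest knockdown value was far above its highest control value. The log2 fold change was 3.86 (SE 0.196). Both promoter windows of ALK are shown above because the table gives 1 value for the gene and does not say which start was used. ANTXR1, a collagen-binding receptor also used by anthrax toxin (69240310 to 69476460), had 1.71, 1.94 and 1.87 RPM in the control and 13.8, 13.6 and 15.6 RPM in the knockdown, a log2 fold change of 2.96 (SE 0.144). For both genes the rise was several times the median of the stretch.

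PLB1, a phospholipase of the intestinal brush border, had 2.90, 2.23 and 2.63 RPM in the control and 11.2, 11.3 and 12.8 RPM in the knockdown, a log2 fold change of 2.19. ZAP70, a tyrosine kinase known from T cell receptor signalling, had 8.71, 7.11 and 5.52 RPM in the control and 22.3, 25.4 and 26.1 RPM in the knockdown, a log2 fold change of 1.81. Markers of leukocytes stayed low in all samples (above), with CD68 at no more than 1.54 RPM in the control and 0.434 RPM in the knockdown. VSNL1, a calcium sensor of neurons, had 6.96, 8.16 and 9.35 RPM in the control and 21.8, 22.3 and 22.8 in the knockdown, a log2 fold change of 1.46. KRCC1, a lysine-rich protein, stood at 283% of control, going from 5.65 to 6.54 RPM in the control samples to 15.6 to 19.0 RPM in the knockdown samples.

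RGPD2 and RGPD3 are primate copies of RANBP2, a protein of the nuclear pore, and CD8BP is a pseudogene of the T cell coreceptor chain CD8B. RGPD2 had 1.73, 1.19 and 0.830 RPM in the control and 6.42, 6.68 and 8.07 in the knockdown, and RGPD3 had 1.14, 1.18 and 1.27 and then 5.83, 7.47 and 6.68, with log2 fold changes of 2.55 and 2.47. CD8BP rose by 1.95, from 2.50 to 3.90 RPM in the control samples to 12.3 to 13.2 RPM in the knockdown samples. Reads of these copies may be shared between them, so the value of any single copy is uncertain. Of 15 near-identical copies in a fixed list, 14 rose, 0 fell and the median was 0.76. In the whole stretch 71.3% rose and the median was 0.46. RANBP2, the parent of the RGPD copies, had 178, 182 and 161 RPM in the control and 201, 210 and 201 in the knockdown, a log2 fold change of 0.24, and RGPD5, RGPD6 and LIMS3 rose by 0.79, 0.72 and 0.61.

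**Figure D4:**
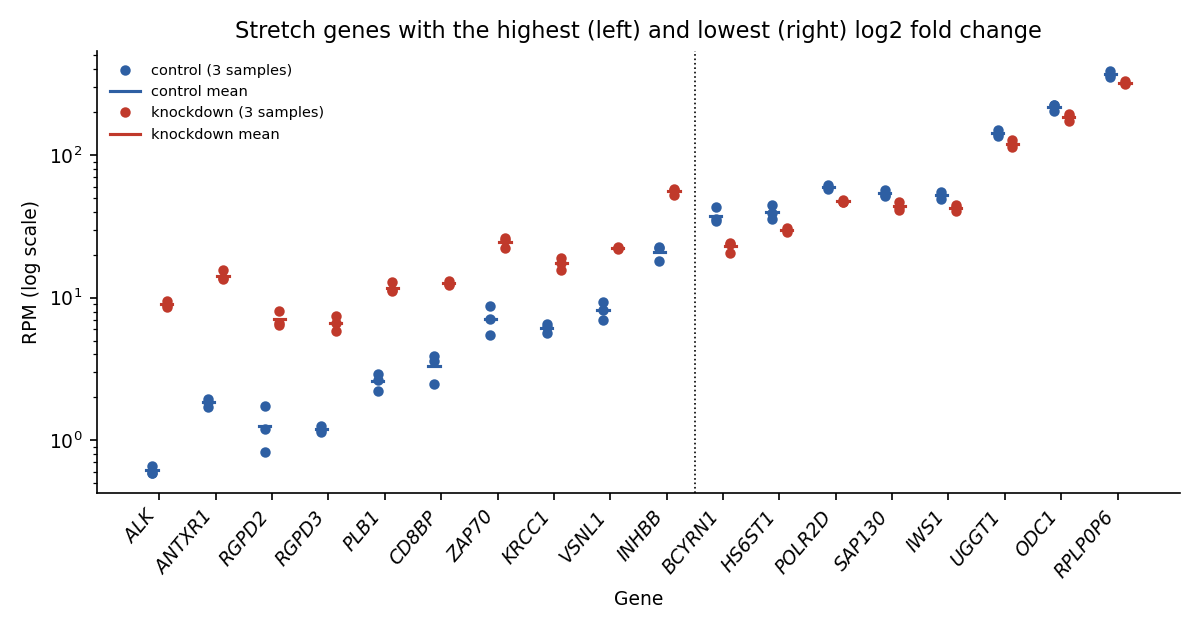
RPM per sample (log axis) of 10 genes with the highest and 8 with the lowest log2 fold change in the stretch where the mean reached 3.5 RPM; points are samples and short lines group means. ALK moves from 0.595 to 0.664 RPM in the control samples to 8.55 to 9.52 in the knockdown samples, while the lower genes on the right differ by much less.

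Falls were few, and part of them lay at the far end. Of the 14 genes that fell, 5 lie beyond that edge, namely IWS1, POLR2D, SAP130, UGGT1 and HS6ST1. HS6ST1, a heparan sulfate sulfotransferase (128994290 to 129076152), had 39.0, 44.7 and 35.4 RPM in the control and 28.9, 29.6 and 31.0 RPM in the knockdown, a log2 fold change of -0.41. POLR2D, a subunit of RNA polymerase II, had 59.4, 61.4 and 57.9 RPM and then 46.7, 46.8 and 48.7 (-0.33). The elongation factor IWS1, the corepressor subunit SAP130 and the glycoprotein-folding sensor UGGT1 changed by -0.29, -0.30 and -0.24, in each case with no overlap between the groups.

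The other 9 that fell lie within the shifted part. BCYRN1, a small cytoplasmic RNA of neurons (47558199 to 47571657), had 35.5, 34.7 and 43.0 RPM in the control and 23.7, 24.3 and 20.7 RPM in the knockdown, a log2 fold change of -0.71. It lies next to EPCAM, the epithelial adhesion molecule (47572297 to 47614741), which had 116, 114 and 101.4 RPM in the control and 204, 205 and 209.9 RPM in the knockdown, a log2 fold change of 0.90. ODC1, the first enzyme of polyamine synthesis, had 202, 224 and 225 RPM in the control and 188, 173 and 195 in the knockdown (-0.23). RPLP0P6, a processed copy of the ribosomal gene RPLP0, changed by -0.20, and its reads may be shared with the parent. AFF3, FAM49A and BCL11A fell by 1.503, 0.91 and 0.50 on the log2 scale, at control means of 1.49, 1.64 and 3.72 RPM. AFF3, the only fall of 1 log2 unit or more, had -0.94 without knockdown replicate 4 and -0.66 on the log2(RPM + 1) scale, and the other 3 are the loci AC007238.1, AC016734.2 and AC007318.5. HK2, a hexokinase, and EIF3FP3, a pseudogene, were next lowest (-0.19 and -0.17) and did not pass, although HK2 passed under 2 other scalings and without control replicate 6, and EIF3FP3 under 1 other scaling.

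The genes with the most reads lay on both sides of the stretch's median. TMSB10, an actin-sequestering thymosin (85132749 to 85133796), had 576, 553 and 573 RPM in the control and 835, 774 and 776 RPM in the knockdown, a log2 fold change of 0.49 (SE 0.0750). RRM2, the ribonucleotide reductase subunit needed for DNA synthesis, had 249, 266 and 242 RPM and then 372, 336 and 363 (0.50), and the small-subunit protein RPS7 had 244, 216 and 233 and then 394, 329 and 293 (0.54). RHOB, an endosomal GTPase, and SPTBN1, a spectrin of the membrane skeleton, rose by 0.38 and 0.30. The adaptor YWHAQ had 455, 459 and 434 RPM in the control and 459, 424 and 476 in the knockdown, with overlapping groups and a log2 fold change of 0.01. XPO1, the nuclear exportin, had 351, 352 and 320 RPM and then 381, 379 and 390, with no overlap but a log2 fold change of 0.17 that did not pass; it passed under each of the 3 other scalings.

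By role, 235 of the 582 genes were placed in 14 lists, and in every list the median log2 fold change was above 0. These lists were made with results of these data known and describe the stretch only. In the stretch as a whole 71.3% rose and 2.41% fell, against 22.7% and 19.3% of all genes tested. The counts below are to be read beside these shares, and no list was tested.

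Among 24 signalling genes 16 rose and 0 fell (median 0.41). EDAR, the ectodysplasin receptor of the TNF receptor family (109510927 to 109605829), had 86.5, 81.0 and 68.8 RPM in the control and 145.6, 153 and 159 RPM in the knockdown, a log2 fold change of 0.96. The kinase ROCK2, which drives actomyosin contraction, and PPP1CB, a catalytic subunit of protein phosphatase 1, rose by 0.30 and 0.21. The GTPase RALB, near the edge, rose by 0.74. Of 23 transcription factors 17 rose and 2 fell (median 0.54), AFF3 and BCL11A being the falls. ID2, an inhibitor of basic helix-loop-helix factors, FOSL2 of the AP-1 family and LBH, a Wnt-responsive cofactor, rose by 0.41, 0.43 and 0.61. EPAS1, the hypoxia factor HIF-2 alpha, had 172.3, 176 and 150.1 RPM in the control and 147, 151 and 173 RPM in the knockdown (-0.08, groups overlapping). A further 7 listed factors, MYCN among them, were below 0.7 RPM.

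Of 12 chromatin regulators 10 rose and 1 fell (median 0.45). The most read were ASXL2, a Polycomb-associated protein, KANSL3 of a histone acetyltransferase complex, SAP130 and the coactivator NCOA1. ASXL2, KANSL3 and NCOA1 rose by 0.26, 0.57 and 0.28, and SAP130 was the 1 that fell (-0.30). Of 20 genes of DNA repair, replication and mitosis 16 rose and 0 fell (median 0.44). MSH6, a DNA mismatch repair protein, had 86.0, 89.8 and 84.2 RPM in the control and 110.4, 110.3 and 114 RPM in the knockdown, a log2 fold change of 0.36. The checkpoint kinase BUB1 rose by 0.29, and CENPO, of the kinetochore, had a log2 fold change of -0.03 with overlapping groups.

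Among 21 genes of RNA polymerases, splicing and RNA processing 15 rose and 2 fell (median 0.28), with SNRNP200, the helicase of the spliceosome, at 0.51, the RNA-binding proteins PCBP1 and PUM2 at 0.26 and 0.32 and the splicing factor SRSF7 at 0.25. Among 14 genes of the ribosome and its assembly 10 rose and 0 fell (median 0.27). The large-subunit protein RPL31 had 227, 205 and 213 RPM in the control and 338, 324 and 295 RPM in the knockdown (0.57), and RPS27A and the initiation factor EIF5B both rose by 0.31. Of 9 genes of the mitochondrial ribosome and its factors 5 rose and 0 fell (median 0.23): PTCD3, which binds the small subunit, rose by 0.66, MRPS5 and MRPL19 by 0.24 and 0.23, and the initiation factor MTIF2 had 0.17 and did not pass, but passed under 2 of the 3 other scalings. Of 14 genes of chaperones, proteasome and ER folding 9 rose and 1 fell (median 0.28), with the disulfide isomerase PDIA6 at 0.42 and the chaperonin subunit CCT7 at 0.22, while CCT4 had 0.11 and did not pass, but passed under 2 of the 3 other scalings.

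All 14 genes of mitochondrial energy and fatty acid oxidation rose (median 0.37). The RNA-binding protein LRPPRC had 132, 146 and 129 RPM in the control and 171, 150.3 and 162 RPM in the knockdown (0.25), IMMT of the cristae rose by 0.34 and COX7A2L, which joins respiratory complexes, by 0.37. HADHA, of the trifunctional protein of fatty acid oxidation, rose by 0.19, the smallest rise in the stretch. That call was lost under 9 of the 16 alternatives run for it. Of 21 genes of cytosolic metabolism 18 rose and 1 fell (median 0.43). MAT2A, which makes S-adenosylmethionine, had 231, 216 and 206 RPM in the control and 274, 273 and 301 RPM in the knockdown (0.37), and the pyrimidine enzyme CAD and the folate enzyme MTHFD2 rose by 0.25 and 0.21.

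Of 21 genes of cytoskeleton, adhesion and matrix 17 rose and 0 fell (median 0.49), led by ANTXR1. ACTR3 of the Arp2/3 complex rose by 0.37, and its partner ACTR2 had 0.18 and did not pass, but passed under each of the 3 other scalings. Of 24 genes of vesicle traffic and membrane transport 18 rose and 0 fell (median 0.37). TGOLN2, a trans-Golgi protein, rose by 0.41, and RTN4, a reticulon of the endoplasmic reticulum, had 145.6, 151 and 141 RPM in the control and 142, 140.4 and 153 in the knockdown (-0.01, groups overlapping). Of the cytokine and cell death list only 4 of 15 were among the 582, and 7 of the others were below 0.7 RPM. BCL2L11, the proapoptotic BIM, rose by 0.71 and the oxidoreductase TP53I3 by 0.998, and PELI1, a ubiquitin ligase, had 0.23 and did not pass, except without control replicate 5 (0.36).

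**Figure D5:**
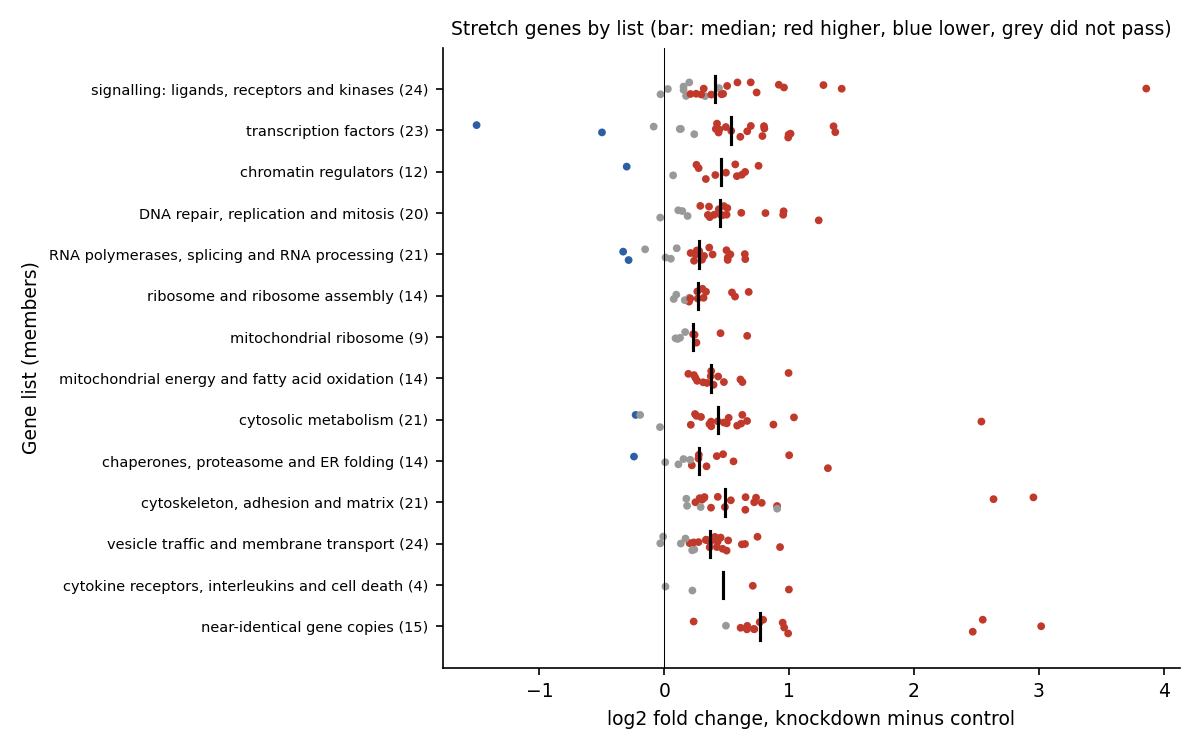
log2 fold change, knockdown minus control (horizontal axis), of stretch genes in the 14 lists (vertical axis, number of members in brackets); points are genes coloured by the limma call and bars are list medians. Medians run from 0.23 in the mitochondrial ribosome list to 0.76 in the near-identical copies, and the blue points are the few members that fell.

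Some calls depended on the settings. The calls of HADHA, MTHFD2, PPP1CB, MRPL19, MRPS5, NCOA1, CAD, CCT7, LRPPRC, ASXL2, PCBP1, SRSF7 and RANBP2, and the falls of ODC1, UGGT1, RPLP0P6, BCL11A and FAM49A, were each lost under 1 or more of the alternatives run. CYP26B1, a retinoic acid hydroxylase counted among the metabolic genes that rose (2.54, at a mean of 0.727 RPM), lost its call without the variance trend and with robust moderation (adjusted p = 0.0634 and 0.0648 by limma), and its log2 fold change ran from 1.46 to 3.26 when 1 sample was left out. Without control replicate 6, the log2 fold changes of CYP26B1, MTHFD2 and NCOA1 were 1.46, 0.12 and 0.18.

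Similar values were seen in other parts of the genome. Genes of chromosome 3 that start below 70 Mb (369) had a median of 0.38 with 59.6% that rose, and genes of chromosome 7 that start beyond 120 Mb (185) had 0.41 with 62.2%. Chromosome 21 as a whole (138 genes) had 0.32 with 58.0%, and chromosome 13 (268 genes) had 0.07 with 35.4%. The stretch of chromosome 2 had 3.77% of all genes tested and 11.9% of all genes that rose. Whether these parts differ from each other was not tested.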

How the data were processed

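Bulk RNA from 3 knockdown and 3 control samples was measured. The deposited table holds log2 values, which from their steps are log2(RPM + 0.0001), RPM being reads scaled to a common depth; this scale was read from the values, of which 80.3% to 81.4% of the low ones were whole reads within 0.02, too few for a count model. Partek, Bowtie and hg38 are named without versions per the submitters' processing notes, and counting, filters and strand use have no statement in the labels (not given in the sources used here). Positions in the table run beyond the ends of chromosomes 1 and 2 in GRCh38 (249214146 and 243102305 are its largest ends), so its build is not hg38 and its coordinates are given as deposited. Depth recovered from the steps was 20350000 to 28580000 reads, so that 3 reads are 0.105 to 0.147 RPM.

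Symbols at several loci carried identical values and were left out of the stretch. The 15451 symbols whose mean reached 0.7 RPM were fitted with limma 3.58.1 in R 4.3.3 (lmFit, eBayes with trend), two-sided, adjusted by Benjamini and Hochberg's method across every symbol fitted, and a threshold of 0.05; ALDH1B1 also had an exact permutation test. The fit was tested on simulated data. Alternatives were other scalings, offsets, filters, limits of the stretch, variance models, a replicate block and leaving out each sample.

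The stretch, the gene lists and the rules were chosen with earlier results of these data known. The named genes were, where the mean reached 3.5 RPM, the 10 highest and 10 lowest by log2 fold change; then the 8 with the most reads, the 4 most read of each list, the 4 on each side of 130 Mb and the 3 on each side of 0.7 RPM. EPCAM, GLI2, TFCP2L1, CLASP1, NIFK, NIFK-AS1, TSN, RALB, AFF3, BCL11A, FAM49A and the 3 unnamed loci that fell were chosen after their values were seen. Promoter windows are from RefSeq, GRCh38.p14, and were matched by symbol. Figures were drawn with matplotlib 3.10.9 in Python 3.11.15.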

Additional observations from a re-analysis of the deposited data

How the results depend on the processing

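The median log2 fold change of the stretch (0.46) and its number of genes that rose (415) kept their direction under all 19 alternatives, and leaving out 1 sample gave 375 to 400 genes and medians of 0.43 to 0.48. The number that fell (14) was 8 to 17 when 1 sample was left out, with 9 without control replicate 4 or 5 and 8 without knockdown replicate 5, and 9 with the limit at 120 or 110 Mb. The median of the stretch minus that of the rest of chromosome 2 (0.56) was 0.50 with log2(RPM + 1), 0.58 with no filter, 0.54 with a mean of at least 3.5 RPM, 0.50 with the limit at 110 Mb and 0.53 to 0.56 when 1 sample was left out. For these the cause was not tested. Both nearer limits leave the bin that begins at 120 Mb out of the stretch, and 5 of its 30 genes fell. The limit at 110 Mb also leaves out the bin that begins there, with a median of 0.63 and 45 of 56 genes that rose.

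Genes near 0 changed sign without passing: YWHAQ to -0.0126 under median of ratios scaling, EPAS1 to 0.0146, CENPO to 0.0229, RTN4 to 0.10 and RAB6C to -0.0046 under quantile normalization, and CENPO to 0.0208 and RTN4 to 0.0442 under scaling to the total of nuclear genes. With 1 sample left out, RTN4 ran from -0.0489 to 0.0146, RAB6C from -0.0584 to 0.47, YWHAQ from -0.0265 to 0.0576, MZT2B from -0.0044 to 0.10 and NIFK from -0.0094 to 0.18; the cause was not tested.

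Replicate numbers are shared between the groups, and the labels do not say what they stand for. Same-numbered samples did not deviate together over all genes tested (correlations of -0.05, -0.06 and -0.12). A shared batch that acts on part of the genes was not tested. A fit with the replicate number as a block gave 382 for stretch genes higher and 10 for stretch genes lower, with the same medians of 0.46 and 0.56. Of the 132 genes from 0.7 to 3.5 RPM, 62 did not pass; the part of depth in this was not tested.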
